A study of Mus musculus with 6 samples.

Results

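Csf1r, Aif1, Cx3cr1, C1qa, C1qb, C1qc, Tyrobp, Trem2, Cd68 and Fcer1g, 10 genes known as markers of microglia, were followed in the retina of newborn mice. They were chosen by gene symbol, and all 10 were found, on 16 of the 22690 probe sets of the Affymetrix Mouse 430A 2.0 array, among 12393 genes with a single symbol. Whole retinas of 3 wildtype and 3 Nhlh2 knockout mice of mixed C57/129 background were taken at postnatal day 4 (P4), 1 array per mouse, and each wildtype mouse had a knockout littermate. The knockout is given in the labels only by the gene name, without the allele. Nhlh2 itself was not analysed here, so the targeted gene does not check the genotype labels.

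Microglia are the resident macrophages of the nervous system. They enter the eye before birth, live on signals through the receptor Csf1r, and in the early postnatal retina clear dying cells and the vessels and synapses that are not kept. C1q, the molecule that starts the classical complement pathway, is built from the chains encoded by C1qa, C1qb and C1qc, and in nervous tissue microglia are its main source. In a whole retina, fewer microglia and less RNA per microglial cell cannot be told apart.

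Signals are given on a linear scale, with each array set to a 2% trimmed mean of 500, because the deposited trimmed means ran from 25.2 to 267. The array of knockout replicate 2 stood apart from the rest. Its 3' to 5' signal ratio of the Actb control probe sets was 274, against 1.38 to 1.56 on the other arrays, and its highest correlation of log2 signals with any array was 0.604, whereas the lowest correlation of the others with a wildtype array was 0.925. Its values are therefore named separately, and the comparison of genotypes used the remaining 5 arrays, with all 6 as an alternative. Wildtype replicate 1 had a signal of 5842 for the lens crystallin Cryaa, against 3.25 to 77.4 elsewhere. Retinal neuron and progenitor genes were high throughout, with all 10 measured genes of that list, among them Crx, Nrl and Pax6, above the array median in every wildtype array. That held for 51.3% of all 12393 genes, each by 1 probe set.

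C1qb, C1qc and C1qa lie next to each other, in this order, on mouse chromosome 4, with Ephb2 and Epha8 as their neighbours among protein-coding genes. RefSeq promoter sequences (GRCm38.p6, 300 bases, from 250 before to 50 after the gene start) were matched for 7 of the 10 genes: Aif1, Cx3cr1, C1qb, C1qc, Trem2, Cd68 and Fcer1g. They were searched on both strands for GAGGAA, a core of the letters bound by the myeloid factor PU.1 (encoded by Spi1), and for the longer GAGGAAGT, which contains it. GAGGAA was present in 5 of the 7 and in 28.3% of all 32851 promoters, and GAGGAAGT in 1 of the 7, C1qc, and in 3.2% of all. A match is a stretch of letters and not a binding site. For each of the 5 genes with a match 1 is shown, for Cd68 that nearer to the gene start, on the strand of the gene and with the motif, or its reverse complement, in capitals.

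C1qc, chr4:136893091-136893120, minus strand: ggacggcagacACTTCCTCattttggcaca

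C1qb, chr4:136886213-136886242, minus strand: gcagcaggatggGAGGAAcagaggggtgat

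Trem2, chr17:48346349-48346378, plus strand: agcctcctttccTTCCTCcctccctcacgc

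Aif1, chr17:35176042-35176071, minus strand: ataggcacccagTTCCTCcatcctattgtt

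Cd68, chr11:69666124-69666153, minus strand: gaggcttttcatTTCCTCttccaagagaag

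In the P4 wildtype retina the microglia genes had low to middle signals. A probe set was counted as expressed when its signal was above the median of its array, which is in part the rule of the study (that used present calls where it had them, and plain _at probe sets alone), here 173, 179 and 154 in wildtype replicates 1, 2 and 3. By the probe set of highest mean of each gene, 3 of the 10 genes (Csf1r, C1qa and C1qb) were expressed in all 3 wildtype arrays, against 51.3% of the 12393 genes. Cx3cr1 was expressed in 2 arrays and C1qc and Tyrobp in 1, while Aif1, Trem2, Cd68 and Fcer1g were expressed in none. Signals of different genes depend on their probes, so they give no order of transcript amounts between genes.

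**Figure D1:**
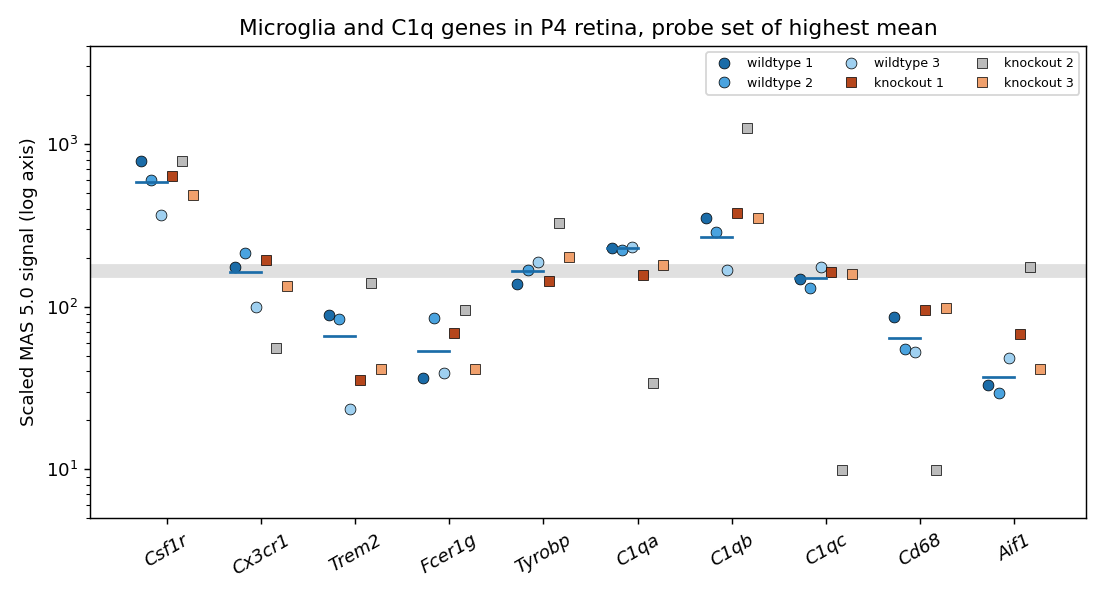
Scaled MAS 5.0 signal (log axis) of the 10 genes, each by its probe set of highest mean, in 3 wildtype (circles) and 3 knockout (squares) P4 retinas, with the wildtype mean as a blue bar and the range of the array medians, without knockout 2, as a grey band. C1qa is nearly level among the wildtype mice and lower in both knockout 1 and 3, Cd68 is higher in both, and knockout 2 (grey) lies outside the range of the other 5 arrays for every gene but Csf1r.

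Of the receptors, Csf1r, the receptor for the growth factors Csf1 and Il34, had signals of 782, 597 and 366 in wildtype replicates 1, 2 and 3 (582 ± 209; SD, n = 3 mice). These lay between the 66th and the 79.6th percentile of their arrays. In knockout replicates 1 and 3 the signals were 633 and 485, inside the wildtype range, with 780.2 in knockout replicate 2. The other probe sets of Csf1r gave 205 ± 53.3 and 192 ± 43.1 (SD, n = 3), and unlike the first they were not lowest in wildtype replicate 3. In knockout replicates 1 and 3 these had 132 and 182, and 158 and 103. The array thus holds no single order of the mice for Csf1r.

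Cx3cr1, the receptor by which microglia read the neuronal chemokine Cx3cl1, had 176, 212 and 99.7 in the wildtype mice (163 ± 57.3) and 192 and 134 in knockout replicates 1 and 3, on the probe set of highest mean. Its second probe set gave 90.1, 118 and 21.4 against 61.2 and 20.2, so both placed wildtype replicate 3 lowest of the wildtype mice. The genotypes overlapped on both. Trem2, a receptor for lipids and cell debris, had 88.8, 84.3 and 23.3 in the wildtype mice (65.5 ± 36.6; SD, n = 3) and 35.5 and 41.5 in knockout replicates 1 and 3. The knockout signals lay within the wildtype range, which spanned 3.81-fold. Its other probe set had 3.79 to 6.75 in the wildtype mice, and 11.3 and 8.002 in the knockout mice, all near the floor of the array.

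Tyrobp and Fcer1g encode the adaptors that pass on signals of Trem2 and of Fc receptors. Tyrobp had 138, 168 and 188 in the wildtype mice (164 ± 25.1) and 145 and 202 in knockout replicates 1 and 3. Knockout 3 was thus just above the wildtype mice and knockout 1 among them. Fcer1g had 36.2, 84.7 and 38.8 (53.2 ± 27.3; SD, n = 3) against 69.2 and 41.5, with wildtype replicate 2 the highest of these 5 arrays.

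Among the C1q chains the wildtype mice were close to each other for C1qa, and for C1qb on 1 of its probe sets. C1qa had 229, 224 and 231 (228 ± 3.67; SD, n = 3), a coefficient of variation of 1.61%, and 0.918% of the 11324 probe sets tested had a lower one, with a median of 16.4%. In knockout replicates 1 and 3 it had 156 and 181, both below all 3 wildtype mice. C1qb had 247, 230.2 and 248.5 on its plain probe set (242 ± 10.3), and 214 and 272 in knockout replicates 1 and 3, on either side of the wildtype range. C1qc had 147, 131 and 174.5 (151 ± 22.2; SD, n = 3) and 164 and 157, within that range.

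The remaining C1qb probe sets, whose suffix (x_at) marks probes that can also bind other transcripts, gave another picture. The higher of them, which has the highest mean of the gene, had 351, 287 and 169 in the wildtype mice (269 ± 92.8) and 378 and 349 in knockout replicates 1 and 3. The other had 226, 203 and 120.3, against 208 and 249.5. Wildtype replicate 3 was lowest on both of these and highest on the plain probe set. In knockout replicate 2 the plain C1qb probe set read 11.9 and the x_at probe sets 1257 and 903, so this array gives no level of C1qb.

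**Figure D2:**
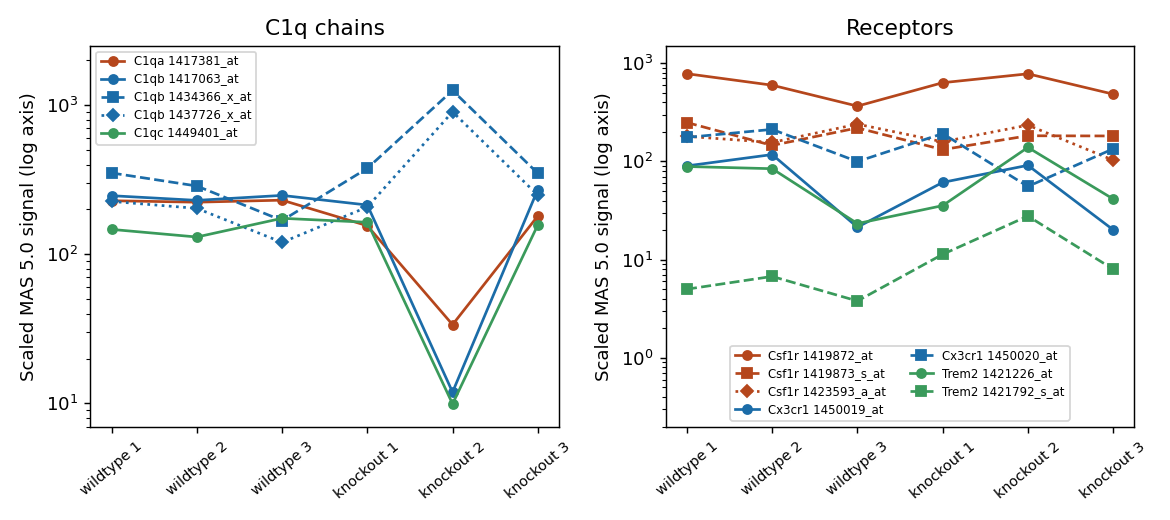
Scaled MAS 5.0 signal (log axis) of every probe set of the C1q chains (left) and of Csf1r, Cx3cr1 and Trem2 (right) in the 6 arrays, 1 line per probe set. In knockout 2 the C1qb probe sets part, from 11.9 to 1257, and among the wildtype arrays the x_at sets of C1qb fall in replicate 3 while the plain set does not.

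Cd68, a membrane protein of the lysosome that rises in phagocytic cells, had 86.0, 55.1 and 52.3 in the wildtype mice (64.5 ± 18.7) and 94.9 and 98.4 in knockout replicates 1 and 3, above all the wildtype mice. It was at 9.93 in knockout replicate 2. Aif1, the calcium-binding protein known as Iba1, had 32.8, 29.4 and 48.2 (36.8 ± 10.04; SD, n = 3) against 67.5 and 41.5, with knockout 1 above and knockout 3 within the wildtype range. Both genes were below the array median in all 5 arrays.

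Between the genotypes, no microglia gene passed the test. Of 11324 probe sets above the array median in at least 3 of the 5 arrays, limma on log2 signals called 0 (0%) at an adjusted p below 0.05, and 82 (0.724%) had an unadjusted p below 0.05, of which 50 (0.442%) were lower in the knockout. The 11324 included 7 of the 16 probe sets, from 4 of the 10 genes (Csf1r, Cx3cr1, C1qa and C1qb). Of the 7, 1 had an unadjusted p below 0.05, that of C1qa, and this was lower in the knockout. It was also the 1 of the 7 with both knockout values below all wildtype values (5.46% of those tested), and 0 of the 7 lay above them (5.33%). C1qa changed by -0.44 on the log2 scale (SE 0.18, 95% interval -0.87 to -0.01), 26.3% lower in the knockout, and did not pass the adjusted threshold (limma, adjusted p = 0.9996). With no filter on low signals its unadjusted p was above 0.05 as well. Over the probe set of highest mean of each gene, the knockout values lay below all wildtype values for 1 of the 10 genes, C1qa, as for 7.52% of all genes, and above them for 1, Cd68, as for 7.35%.

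Csf1r, Cx3cr1 and C1qb had log2 changes of -0.0026 (95% interval -0.84 to 0.83), 0.05 (-0.82 to 0.92) and 0.50 (-0.30 to 1.29), with adjusted p = 0.9996 for each by limma. The interval of the plain C1qb probe set was narrower, from -0.47 to 0.46 around -0.0035. On its other probe sets Csf1r had -0.36 (-1.07 to 0.34, limma adjusted p = 0.9996) and, below the filter, -0.56 (-1.41 to 0.29). The second Cx3cr1 set, also below the filter, had -0.78 (-3.14 to 1.58). The 6 genes whose signals were too low for the test had log2 changes from -0.54 (Trem2) to 0.61 (Cd68). Trem2 was at -1.15 without wildtype replicate 3 and at -0.21 without wildtype replicate 1, and C1qb at 0.19 without wildtype replicate 3. The median over the 10 genes was 0.09, beside 0.01 over all named genes. The knockout mean was the higher one for 7 of the 10, as for 51.2% of all genes. In this fit, which leaves out the pairing, a change of 1.5-fold in either direction lay inside the interval of Csf1r, Cx3cr1, Tyrobp, Trem2 and Fcer1g. With the littermate pair as a block, where only pairs 1 and 3 are complete, the SE fell for some genes and rose for others. It was 0.23 in place of 0.35 for Csf1r, 0.19 in place of 0.36 for Cx3cr1 and 0.34 in place of 0.49 for Fcer1g. C1qb and Tyrobp also had a smaller SE. For C1qa it was 0.19 in place of 0.18 and for Aif1 0.44 in place of 0.36, and C1qc, Trem2 and Cd68 also had a larger one.

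**Figure D3:**
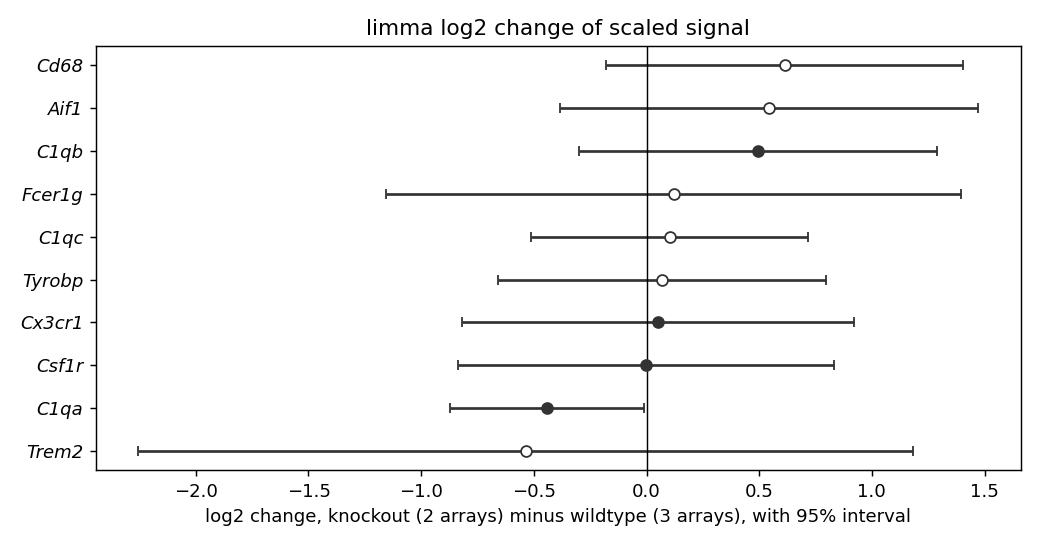
log2 change of scaled signal in Nhlh2 knockout replicates 1 and 3 against the 3 wildtype P4 retinas (horizontal axis), with the 95% interval of the limma fit, for the 10 genes by their probe set of highest mean; filled points passed the filter on low signals and open points did not. Of the 10 intervals, that of C1qa (-0.87 to -0.01) leaves out 0, before any adjustment.

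Within littermate pairs, each gene was compared between a wildtype and a knockout mouse of the same litter, without a test, since each has 1 array. In pair 1, 7 of the 10 genes were higher in the knockout (48.1% of all genes), with a median log2 difference of 0.12, but 5 of 10 with the mean of all probe sets of a gene or with plain _at probe sets. In pair 3, 7 of 10 were again higher (52.9% of all genes), with a median of 0.26. The direction was the same in pairs 1 and 3 for 6 of the 10 genes, as for 49.6% of all genes. C1qa was lower in the knockout of both pairs, by -0.55 and -0.35. Cd68 was higher in both, by 0.14 and 0.90, as were Tyrobp (0.07 and 0.11) and Fcer1g (0.92 and 0.10). C1qb and Cx3cr1 were higher in both on the probe set of highest mean (0.10 and 1.05, and 0.13 and 0.43), but not on the others. The plain C1qb probe set had -0.21 and 0.13, its other x_at set -0.12 and 1.05, and the second Cx3cr1 set -0.55 and -0.08. On the probe set of highest mean, Trem2 went from -1.30 in pair 1 to 0.81 in pair 3 and Csf1r from -0.30 to 0.40. Aif1 went from 1.02 to -0.21 and C1qc from 0.16 to -0.15. The other Csf1r probe sets were lower in the knockout of both pairs (-0.91 and -0.27, and -0.18 and -1.21). The other Trem2 set, near the floor, was higher in both (1.04 and 0.91). In pair 2, whose knockout array stood apart, 6 of 10 were higher (53.8% of all genes), between -3.59 for C1qc and 2.53 for Aif1.

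**Figure D4:**
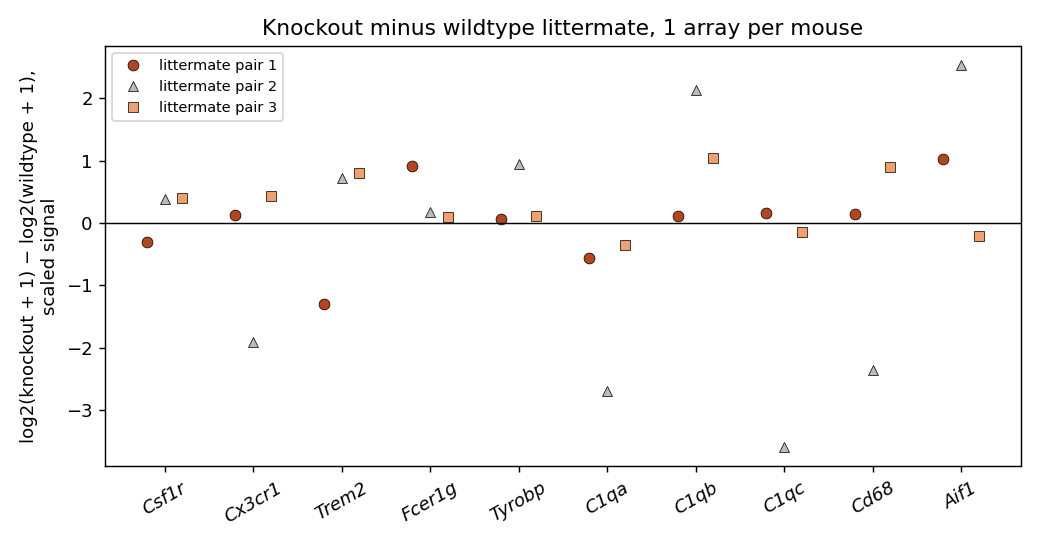
log2 difference of scaled signal (a constant of 1 added) between the knockout and the wildtype mouse of each litter (vertical axis) for the 10 genes, 1 point per pair; pair 2 holds the array that stood apart. Each gene is shown by its probe set of highest mean. On these, C1qa is below 0 in pairs 1 and 3, while Trem2, Csf1r, Aif1 and C1qc change side between them.

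The 10 genes did not follow 1 common order over the arrays. With each gene centred on its mean log2 signal over the 5 arrays, wildtype replicate 3 was lowest for 5 of the 10 genes, with a mean of -0.32 and an SD over genes of 0.47. The means of the other arrays lay between -0.01 and 0.14, with 2 genes highest in each of the 5 arrays. Among the wildtype mice alone, replicate 3 was lowest for 5 of 10 genes and for 41.9% of all genes. Trem2 (-1.02), C1qb (-0.81), Cx3cr1 (-0.65), Csf1r (-0.60), Cd68 (-0.51) and Fcer1g (-0.39) were below their mean in wildtype replicate 3, and Aif1, C1qa, C1qc and Tyrobp were above it. No correlation across arrays is given, since 5 arrays are too few. Searched for over 10465 candidates, the probe sets nearest to the mean profile of the 10 genes, which the single genes did not follow, were those of Slc25a46, Eed and Cybc1, with root mean square differences of 0.0134, 0.0229 and 0.025 on the log2 scale over the 5 arrays. Some probe sets must be nearest in such a search, and nothing is read from these.

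Other genes of the same cells were likewise low, and none passed the test between the genotypes. Of 40 further microglia genes listed, 36 were measured, of which 28 were below the array median in every wildtype array. Another 6 were above it in all, beside 51.3% of all genes: Lgmn, Csf2ra, Tgfbr1, Fcgr2b, Coro1a and Ctss. P2ry12, the ADP receptor typical of resting microglia, had 117, 107 and 52.9 in the wildtype mice and 138 and 29.0 in knockout replicates 1 and 3. Tmem119, a marker that sets microglia apart from other macrophages, had 66.2, 12 and 73.2 against 46.8 and 16.3, and Sall1, a factor of microglial identity, 36.4, 13.1 and 5.15 against 30.5 and 62.2. These wildtype and knockout values overlapped. The cathepsin Ctss had 352, 312 and 233 against 391 and 286. Of the 36 genes, 24 were lower and 12 higher in the knockout, beside 51.2% of all genes higher. Their median log2 change was -0.09, beside 0.01 over all named genes. The largest fall was that of Itgam (-1.71, SE 0.66), the largest rise that of Itgb2 (1.67, SE 1.02), subunits of the same complement receptor, and both had signals too low for the test.

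Of the ligands and signalling partners, 19 of 21 genes were measured, 6 entered the test and 0 were called. Csf1, a ligand of Csf1r, had 119, 164 and 107 in the wildtype mice and 142 and 72.3 in knockout replicates 1 and 3. Il34, the neuronal ligand of the same receptor, had 11.4, 18.9 and 4.61 against 16.1 and 55.1 (log2 change 1.48, SE 0.77), the largest rise of this list. Cx3cl1 had 111, 76.3 and 85.4 against 70.0 and 63.1, both below the wildtype mice (log2 change -0.43, SE 0.26). Spi1, the factor PU.1, had 85.8, 51.4 and 50.95 against 41.5 and 5.93, the largest fall (-1.85, SE 0.83). Plcg2, an enzyme downstream of Trem2 and Tyrobp, had 58.7, 51.9 and 86.5 against 25.2 and 44.2. Csf1, Il34, Cx3cl1, Spi1 and Plcg2 were below the array median in every wildtype array, and their changes were not tested. Il34 lay lowest of these, at no more than the 16.5th percentile of a wildtype array. Apoe, a lipid carrier that binds Trem2 and is also made by Mueller glia, had 3198, 4419 and 3692 against 3955 and 3880 (limma, adjusted p = 0.9996). Inpp5d, a phosphatase that dampens signals of such receptors, was above the wildtype mice in both knockouts (50.8, 50.8 and 51.8 against 88.4 and 53.6). Its other probe set was not (48.0, 43.7 and 55.0 against 54.6 and 13.3), and both were too low for the test. Sirpa, the receptor for Cd47, was below the wildtype mice (543, 568 and 502.5 against 481 and 490.2, limma adjusted p = 0.9996), but its other probe sets overlapped. Both knockout values lay above all wildtype values for 1 of the 19 genes, beside 7.35% of all genes. They lay below them for 4, beside 7.52%. The other 11 genes had log2 changes from -0.40 (Hcst) to 0.37 (Tgfb1): Irf8, Runx1, Syk, Hcst, Cd47, Mertk, Axl, Gas6, Pros1, Tgfb1 and Grb2. The median log2 change of this list was -0.14.

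Among complement genes 27 of 34 were measured, and 5 were above the median in all wildtype arrays (51.3% of all genes): Calr, Serping1, Clu, C1qbp and Cr1l. The proteases that bind C1q were near the floor, with C1ra at 4.16 ± 2.14 and C1s1 at 17.2 ± 3.43 (SD, n = 3 wildtype mice). Serping1, the inhibitor of these proteases, had 352, 271 and 231, and 280 and 198 in knockout replicates 1 and 3. Cr1l, which protects cells from complement, had 609, 377 and 471, and 599.9 and 603. Of the 27, 13 were higher (51.2% of all genes) and 14 lower in the knockout, with a median of -0.01 and 0 called. The extremes were Mbl2 (-2.35) and C1qtnf1 (1.78, but -0.44 on its other probe set), both near the floor. Of 14 phagosome and lysosome genes measured, 11 were above the median in all wildtype arrays (51.3% of all genes). Of these lysosome genes 0 were called, with a median of -0.03 between Lipa (-0.51) and Lamp2 (0.31). On other probe sets Lipa had -0.37 and 0.23, and Lamp2 -0.24, 0.09 and 0.01.

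Markers of other cells that could be in the tissue were set beside these values. Of 11 border macrophage and monocyte genes, 0 were above the median in all wildtype arrays (51.3% of all genes) and 10 in none. Their summed signal was 427 to 683 in the wildtype mice and 385 and 359 in knockout replicates 1 and 3. Of the 11 genes, 7 were lower and 4 higher in the knockout, beside 51.2% of all genes higher. For 2 of them, Pf4 and Stab1, both knockout values lay below all wildtype values, beside 7.52% of all genes. Pf4, a chemokine of platelets and some macrophages, had 277, 78.9 and 101 against 42.0 and 54.8. Stab1, a scavenger receptor, had 89.0, 90.7 and 89.2 against 67.5 and 61.4. The genotypes overlapped for Mrc1 (47.6, 33.55 and 24.9 against 19.9 and 48.9) and Cd163 (29.6, 3.19 and 7.59 against 19.4 and 27.6). Lyve1 had the largest fall (-1.47, but 0.72 on its other probe set) and Cbr2 the largest rise (1.24). The summed signal of the 36 further microglia genes was 6282 to 6332 against 5726 and 5838. The protease Lgmn, also known from other cells, made up 1457 to 1995 and 1420 and 1353 of it, and Tgfbr1 1515 to 1786 and 1451 and 1764. Both knockout values lay below all wildtype values for 5 of the 36 genes, beside 7.52% of all genes, and above them for 4, beside 7.35%. The summed signal of the 10 genes was 1390 to 2066 against 1934 and 1732. Such sums follow the genes of highest signal and give no number of cells. The part of the other cells in the lower C1qa signal was not tested. The 7 T cell, 5 B cell, 8 neutrophil and 4 erythroid genes measured were below the median in every wildtype array, with sums of 126 to 148, 108 to 134, 159.9 to 258 and 97.3 to 116. In the knockout mice these were 216 and 143, 176 and 161, 224 and 262, and 95.4 and 248.

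No gene of the border macrophage, T cell, B cell, neutrophil, erythroid and lens lists entered the test. In the endothelial and pericyte, Mueller glia and astrocyte and retinal neuron lists 3, 7 and 10 genes entered it and 0 were called. Of 11 endothelial and pericyte genes, 8 were lower in the knockout, while 51.2% of all genes were higher. The median of this list was -0.37, with extremes of -1.09 (Tie1) and 0.11 (Kdr). Rgs5, a pericyte gene, had 840, 597 and 668 against 465 and 430 (log2 change -0.64, limma, adjusted p = 0.9996, unadjusted p below 0.05). On each of its other probe sets the genotypes overlapped, with log2 changes of -0.50, -0.72 and 0.09. Of 9 Mueller glia and astrocyte genes 7 were lower, while 51.2% of all genes were higher, with a median of -0.11 for this list. Gfap, the filament protein of astrocytes, had the largest fall there (-1.07, SE 0.35), with 151, 162 and 263 against 76.5 and 100.5, and Glul the largest rise (0.34). Gfap did not enter the test, and on its other probe set the genotypes overlapped. In the remaining lists the extremes were Cd3d (-0.19) and Cd3e (0.68) for T cells, Cd22 (0.53) and Ms4a1 (1.11) for B cells, S100a9 (-2.26) and Elane (2.82) for neutrophils, Alas2 (0.19) and Epb42 (1.26) for erythroid cells, Cryba1 (-4.68) and Mip (0.52) for lens, and Tfap2b (-0.20) and Isl1 (0.11) for retinal neurons. Medians of these lists were 0.33, 0.82, 0.07, 0.74, -0.74 and -0.01. On their other probe sets the direction turned for Ms4a1 (-0.71) and Isl1 (-0.35). The lens values rest on wildtype replicate 1, where the list summed to 11500, against 71.8 and 83.5 in the other wildtype mice and 108 and 136 in knockout replicates 1 and 3.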

How the data were processed

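Total RNA of the retinas was labelled and hybridised to GeneChip 430A 2.0 mouse arrays. The authors summarised each probe set by MAS 5.0 and deposited 1 linear intensity for it per array, with no scaling between arrays evident. Of 22690 probe sets, 64 are controls, and 20380 had a single gene symbol in the platform annotation, 691 had several and 1555 none. Here each array was scaled to a 2% trimmed mean of 500, as MAS 5.0 can do, and 1 was added before log2 because of 3 zeros. Present calls were not used. The 3 wildtype arrays were compared with knockout replicates 1 and 3 by limma 3.58.1 (R 4.3.3; lmFit, eBayes) over 11324 probe sets above the array median in at least 3 of 5 arrays, with Benjamini-Hochberg adjustment, and the fit was tested on simulated data. Knockout replicate 2 was left out for its 3' to 5' ratio. Changes and intervals of probe sets below the filter come from the same fit with no filter. Where a gene has several probe sets, that of the highest mean over the 5 arrays stands for it.

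Wildtype and knockout mice of the same number are littermates according to the series design. After group means were removed, r between them was 0.275, -0.143 and 0.178 in pairs 1, 2 and 3. Without knockout replicate 2 it was 0.488 in pair 1 and 0.724 in pair 3. With 2 knockout arrays left, the deviations of 1 are those of the other with the sign reversed. The r values of pairs 1 and 3 are then not separate checks of the pairing. The members, lists and tests were chosen with earlier results of these data known. Genes were named by a rule: the 10 genes, the ligands and partners, the extremes of each list and the 3 nearest profiles. Tmem119, P2ry12, Sall1, Ctss, C1ra, C1s1, Serping1, Cr1l, Pf4, Stab1, Mrc1, Cd163, Rgs5, Lgmn and genes above the median were named after their values were seen. Arrays have no count or depth, so their number limits the precision. Other scalings, constants, filters, the pair as a block and leaving out each array were alternatives.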

Additional observations from a re-analysis of the deposited data

Results flagged for a closer look

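The array of knockout replicate 2 enters no main comparison. After scaling, 5 of the 10 genes had a signal there above all 3 wildtype arrays: Aif1 with 174.7, C1qb with 1257, Tyrobp with 325.6, Trem2 with 139 and Fcer1g with 95.3. So had 45.4% of all genes. On the signals as deposited, 0 of the 10 genes and 3.03% of all genes were above the wildtype arrays. This array was also the one with the 3' to 5' ratio of 274 for Actb, and the part of that ratio in these values was not tested.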

How the results depend on the processing

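No probe set passed an adjusted p of 0.05 under any of the 16 alternatives fitted with limma. Among them were the replicate block with 5 arrays (0 called) and with 6 (0 called). With 5 arrays only pairs 1 and 3 are complete, and with 6 the array that stood apart is included. These fits therefore cannot tell what the littermate pairing does to the calls. The log2 changes of C1qa, Aif1 and the x_at probe set of C1qb of highest mean kept their direction in all 16, from -1.20 to -0.33, 0.20 to 1.11 and 0.19 to 1.09. Not all of the 16 could move a change, since the filters and the intensity trend of eBayes leave it as it is. The fits of 6 arrays gave the same changes with and without the block. The block with 5 arrays gave those of the fit without wildtype replicate 2. The plain C1qb probe set was not run under these alternatives. With all 6 arrays, with or without the replicate block, 5 genes turned direction: Csf1r to 0.16, Cx3cr1 to -0.45, C1qc to -1.19, Trem2 to 0.0737 and Cd68 to -0.44. With the replicate block and 5 arrays Csf1r was 0.0504, and with quantile normalization 0.0114. On the signals as deposited Cx3cr1 was -0.22, C1qc -0.17, Tyrobp -0.20 and Fcer1g -0.14, and 3, 0 and 5 genes were higher in the knockout of pairs 1, 2 and 3, beside 29.5%, 6.1% and 41.9% of all genes, since each array shifts as a whole. Leaving out each array gave -0.30 to 0.24 for Csf1r, -0.26 to 0.31 for Cx3cr1, -0.17 to 0.31 for Tyrobp and -0.24 to 0.51 for Fcer1g, and -1.15 to -0.21 for Trem2. The median over the 10 genes was -0.18 as deposited and -0.06 without knockout replicate 1. Expressed in all wildtype arrays were 0 of the 10 genes above the 75th percentile and 7 above the 25th. The shares of all genes at these thresholds are not given here, so these counts have no background. The cause of these turns was not tested.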
